A study of Rattus norvegicus with 30 samples.

Results

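The lungs of rats with taurocholate-induced pancreatitis that had received emodin (Emo-6h, 3 rats) were compared with those of sham-operated rats (Sham-6h, 3 rats), both 6 hours after surgery. The comparison takes in 6 of the 30 RNA-seq libraries of a study of the lung injury that accompanies severe acute pancreatitis (SAP), chosen by their group and time labels, and all genes were examined. All rats were male Sprague Dawley animals of 8 weeks, weighing 180 to 220 g and fasted for 12 hours, and each library came from the lung of 1 rat. Emo rats had 5.0% sodium taurocholate, a bile salt, run backwards into the biliopancreatic duct at 0.1 mL per 100 g and were then given emodin, an anthraquinone from rhubarb, into the stomach. The dose is written as 10 mg/kg in the sample descriptions and as 40 mg/kg in the protocol, and at 6 hours only the dose of 2 hours had been given. Sham rats had the pancreas moved by the surgeon without infusion and received saline into a vein and 0.5% carboxymethylcellulose, the emodin vehicle, by mouth. Emo and Sham therefore differed at once in the infusion into the duct, the taurocholate and the drug, whose effects cannot be told apart by this comparison. For that reason the values of untreated pancreatitis (SAP-6h), of saline infusion into the duct (Con-6h) and of dexamethasone-treated pancreatitis (DEX-6h), each of 3 rats, were set beside them.

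Severe pancreatitis releases digestive enzymes and cytokines into the blood, and the lung, with its large capillary bed, is commonly the first distant organ to be injured. Endothelial cells there regulate their permeability through receptor pairs such as the angiopoietins and Tie2, and through peptides such as apelin and adrenomedullin. Emodin has been studied as an anti-inflammatory compound, and RNA was read here from whole lung, in which fewer cells of a type and less RNA per cell cannot be told apart.

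The 6 libraries held 23897363 to 30368850 reads on genes, within the 16813949 to 34692306 of the whole series. The alveolar type 2 marker Sftpc, a surfactant protein gene, had 18846 to 29931 FPKM (fragments scaled to gene length and library size) in each of them, and exocrine pancreas markers other than Pla2g1b carried little of that list's level. Blood and neighbouring tissue varied from rat to rat. Summed heart muscle markers reached 185 FPKM in Emo-6h replicate 2 and 310 in Sham-6h replicate 2 against 18.9 to 54.5 in the other 4, and summed neutrophil markers ranged from 1429 to 3940 FPKM in Emo-6h and from 372 to 5910.5 in Sham-6h. Emo-6h replicate 3 stood apart in interferon-stimulated genes, whose summed level was 5502 FPKM against 206 to 451 in the other 5 libraries. The uniquely mapped share of reads was lower in the taurocholate groups than in both control groups by the mapping statistics of the study, and its part in any difference below was not tested.

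Of 15934 genes tested by edgeR's quasi-likelihood fit, 76 were called (Benjamini-Hochberg adjusted p under 0.05 and at least 2-fold), which is 0.477% of them (0.213% higher and 0.264% lower). These were 34 mRNAs higher and 36 lower in Emo-6h (0.219% and 0.231% of 15554 mRNAs tested), and 6 lncRNAs (long noncoding RNAs), all lower (1.58% of 380). The FPKM values of the groups did not overlap for 73 of the 76, against 21.3% of all genes tested. Without the fold minimum 520 genes passed (3.26%), 253 higher (1.59%) and 267 lower (1.68%), so most of what passed was smaller than 2-fold. The count was unstable: it was 0 mRNAs when the 6 libraries were fitted alone, 4 with the 15 libraries of 6 hours, and 5 to 199 when 1 library was left out. Without Emo-6h replicate 3 it was 27 mRNAs, 17 of them among the 70, without Emo-6h replicate 1 it was 5, without Emo-6h replicate 2 it was 199, without Sham-6h replicate 1 it was 10 and without Sham-6h replicate 2 it was 44. Upper-quartile scaling moved the split from 34 higher and 36 lower to 28 and 49.

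**Figure D1:**
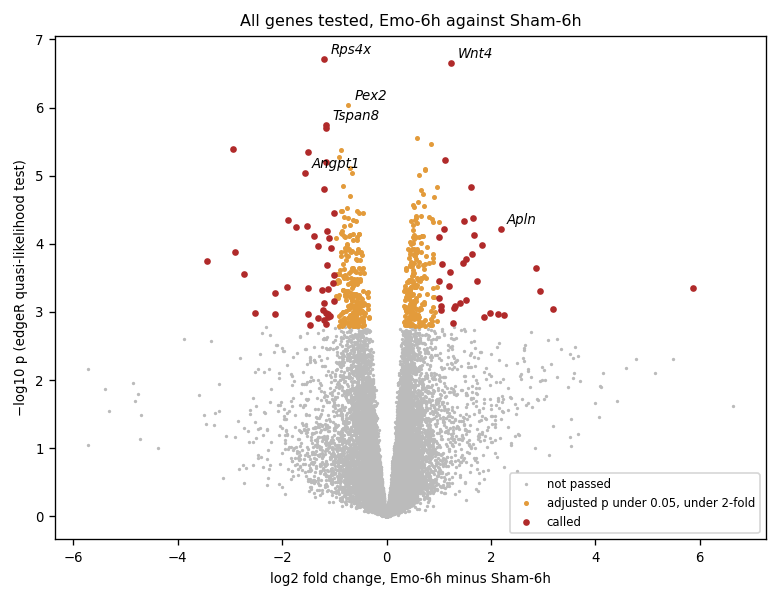
Log2 fold change of Emo-6h over Sham-6h (horizontal axis) against −log10 of the p-value (vertical axis) for the 15934 genes tested, each a point. The 76 called genes are red, and those with an adjusted p under 0.05 but less than 2-fold are orange. Wnt4 and Rps4x have the smallest p-values.

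Of the 76 called genes, 55 were matched to a RefSeq gene of the GRCr8 assembly and 46 to a promoter on the chromosome that the files give. The 250 bases before the start site are shown for the gene with the smallest p among those higher, Wnt4, for 2 endothelial genes that were higher, Apln and Ramp3, and for 2 of the 5 genes with the smallest p, both lower, Tspan8 and Fam118a. Capitals mark a GC box (GGGCGG, either strand), the motif of Sp/KLF factors. The Wnt4 promoter lies at chr5:154797200-154797449, plus strand, that of Apln at chrX:132091247-132091496, minus strand, that of Ramp3 at chr14:85741064-85741313, plus strand, that of Tspan8 at chr7:53330937-53331186, plus strand and that of Fam118a at chr7:118032111-118032360, plus strand.
Wnt4: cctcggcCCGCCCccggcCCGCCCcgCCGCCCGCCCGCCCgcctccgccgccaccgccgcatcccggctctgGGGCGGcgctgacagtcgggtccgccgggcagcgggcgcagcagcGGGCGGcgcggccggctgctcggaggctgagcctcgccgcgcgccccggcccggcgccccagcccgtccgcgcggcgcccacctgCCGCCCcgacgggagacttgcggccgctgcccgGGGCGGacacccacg
Apln: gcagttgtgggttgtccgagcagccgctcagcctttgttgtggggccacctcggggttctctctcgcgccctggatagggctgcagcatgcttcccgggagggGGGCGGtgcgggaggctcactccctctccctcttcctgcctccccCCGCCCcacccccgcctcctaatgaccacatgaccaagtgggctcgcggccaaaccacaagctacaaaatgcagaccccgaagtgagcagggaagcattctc
Ramp3: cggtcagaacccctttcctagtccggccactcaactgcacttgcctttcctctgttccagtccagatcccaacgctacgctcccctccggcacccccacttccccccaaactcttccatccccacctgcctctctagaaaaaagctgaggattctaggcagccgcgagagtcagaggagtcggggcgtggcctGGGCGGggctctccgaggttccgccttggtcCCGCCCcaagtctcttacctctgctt
Tspan8: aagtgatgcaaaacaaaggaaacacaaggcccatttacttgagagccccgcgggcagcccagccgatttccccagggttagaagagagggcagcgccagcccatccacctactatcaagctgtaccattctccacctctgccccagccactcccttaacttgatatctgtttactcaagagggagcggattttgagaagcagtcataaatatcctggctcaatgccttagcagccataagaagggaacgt
Fam118a: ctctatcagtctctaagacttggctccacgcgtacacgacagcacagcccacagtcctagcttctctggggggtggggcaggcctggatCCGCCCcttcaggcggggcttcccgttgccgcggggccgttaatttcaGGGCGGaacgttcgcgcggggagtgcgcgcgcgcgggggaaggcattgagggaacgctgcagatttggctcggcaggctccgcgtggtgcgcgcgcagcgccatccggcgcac
GC boxes are present 9 times in the Wnt4 window, 2 times in Apln, Ramp3 and Fam118a, and not in the Tspan8 window, whose GC content is 51.2% against 86.4% for Wnt4. Over the promoters of genes called higher, 13 of 26 held one (50%), and of genes called lower 13 of 20 (65%), against 30.5% of the 33469 promoters of the table. The AP-1 site TGANTCA was in 1 of 26 and 1 of 20 (6.34% of the table), the core ACGTG of hypoxia elements in 3 of 26 and 2 of 20 (16.6%), CCAAT in 5 of 26 and 3 of 20 (34%) and TGACGTCA in none of either (1.59%). All were searched on both strands, and ACGTG is contained in longer elements. The 33469 promoters were not limited to the genes tested here, and the shares over the tested genes were not computed. The shares describe the letters of the windows only.

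Apln, Ramp3, Lrrc32 and Adamts1 were called higher in Emo-6h. Apln encodes apelin, a peptide of endothelial cells. It had 81.3, 38.4 and 75.9 FPKM in the 3 Emo-6h rats and 22.7, 12.2 and 9.64 in Sham-6h. The groups did not overlap, which the rule for naming this gene and most of those below required. The fold was 4.54 (log2 2.18, SE 0.45, adjusted p = 0.015). This and every later adjusted p is from edgeR's quasi-likelihood fit, adjusted by Benjamini-Hochberg over the 15934 genes. Ramp3, a partner of the adrenomedullin receptor, had 45, 26 and 104 FPKM against 16.7, 21.5 and 13. Its replicate 2 lies only just above the highest Sham rat, and the call was lost without Emo-6h replicate 3 (log2 fold change 1.83, then 1.11), as also without Emo-6h replicate 1 or Sham-6h replicate 1. Lrrc32, which holds latent TGF-beta on the cell surface, had 42.3, 28.1 and 64.5 FPKM against 13.8, 24.6 and 12.2, a 2.76-fold difference (adjusted p = 0.0205). Adamts1, a matrix protease, had 53.3, 23.9 and 46.4 FPKM against 21.6, 16.1 and 13.7 (log2 1.31, SE 0.34, adjusted p = 0.0386), and its call was lost in 5 of 6 fits without a library, all but that without Emo-6h replicate 2.

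Wnt4, Frzb, Dll1 and Glis1 were also called higher. Wnt4, a secreted Wnt ligand, had 27.1, 20.9 and 22.9 FPKM in Emo-6h and 10.8, 9.73 and 10.4 in Sham-6h. The rats of each group lay close together, the fold was 2.36 (log2 1.24, SE 0.17, adjusted p = 0.00178), and the call held in all 6 fits that left out a library. Frzb, a secreted Wnt antagonist, had 32.7, 18.6 and 18.7 FPKM against 11.9, 7.11 and 3.97, and Dll1, a Notch ligand, 20.3, 8.02 and 20.6 against 7.28, 5.59 and 3.45. For Dll1, Emo-6h replicate 2 was near the Sham range. Glis1, a zinc finger transcription factor, was 3.19-fold higher at a low level (1.75 ± 0.284 against 0.563 ± 0.216 FPKM, SD, n = 3).

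Slc16a3, Kcnk5, Slc7a5, Pfkfb3 and Ppp1r3g were called higher as well. Slc16a3, the lactate exporter MCT4, had 32.3, 23.9 and 24 FPKM against 7.71, 13.2 and 8.7 (2.79-fold, adjusted p = 0.0142). Kcnk5, a potassium channel, had 3.89, 2.61 and 4.21 against 1.44, 1.42 and 0.75, and its call was lost in 1 of 6 fits without a library, that without Emo-6h replicate 1. Slc7a5, a transporter of large neutral amino acids, was 2.46-fold higher and Emo-6h replicate 3 was its highest value (20.8 against 11.7 and 7.46). Pfkfb3, an activator of glycolysis, had 44.6 ± 11.3 FPKM against 22.5 ± 4.35 (adjusted p = 0.0403), and its call was lost with upper-quartile scaling, no filter or the replicate block and in 5 of 6 fits without a library, all but that without Emo-6h replicate 2. Ppp1r3g, a glycogen-targeting subunit, was 7.32-fold higher with 2.66, 0.73 and 0.54 FPKM against 0.31, 0.13 and 0.1. Without 1 library the log2 fold change of Ppp1r3g, 2.87 with all, ran from 1.82 to 3.51, and its call was lost without Emo-6h replicate 1 or Sham-6h replicate 1 or 2, and by DESeq2 and limma-voom. Lrrc73 and Tnfrsf9, the latter a receptor of activated T cells, were 2.34-fold and 2.4-fold higher at under 2 FPKM on average.

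Il4r, the interleukin-4 receptor alpha chain, was the most abundant gene called higher. It had 187, 112 and 167 FPKM against 75, 96.2 and 58.7, a 2.1-fold difference (adjusted p = 0.0208), and it lost the call in 4 of 6 fits, those without replicate 1 or 3 of either group (log2 0.90 to 1.27 over the 6). Sema7a, a membrane semaphorin, had 162, 53.5 and 142 FPKM against 29, 56 and 26.1, so that Emo-6h replicate 2 lay inside the Sham range although the gene was called (log2 1.74, SE 0.42, adjusted p = 0.0265). Sema4c was also called (9.64 ± 2.78 against 4.91 ± 0.456 FPKM). C4b, a complement component, had 19.8, 20.1 and 148 FPKM against 15.4, 19.4 and 18.3. Its call came from Emo-6h replicate 3, and without that rat its log2 fold change was 0.21 (adjusted p = 0.742). Abca4 and Atp13a1, looked at after their values were seen, were the same in kind, at 5.28 and 46.9 FPKM in replicate 3 and at most 0.29 and 17.1 in the other 2.

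**Figure D2:**
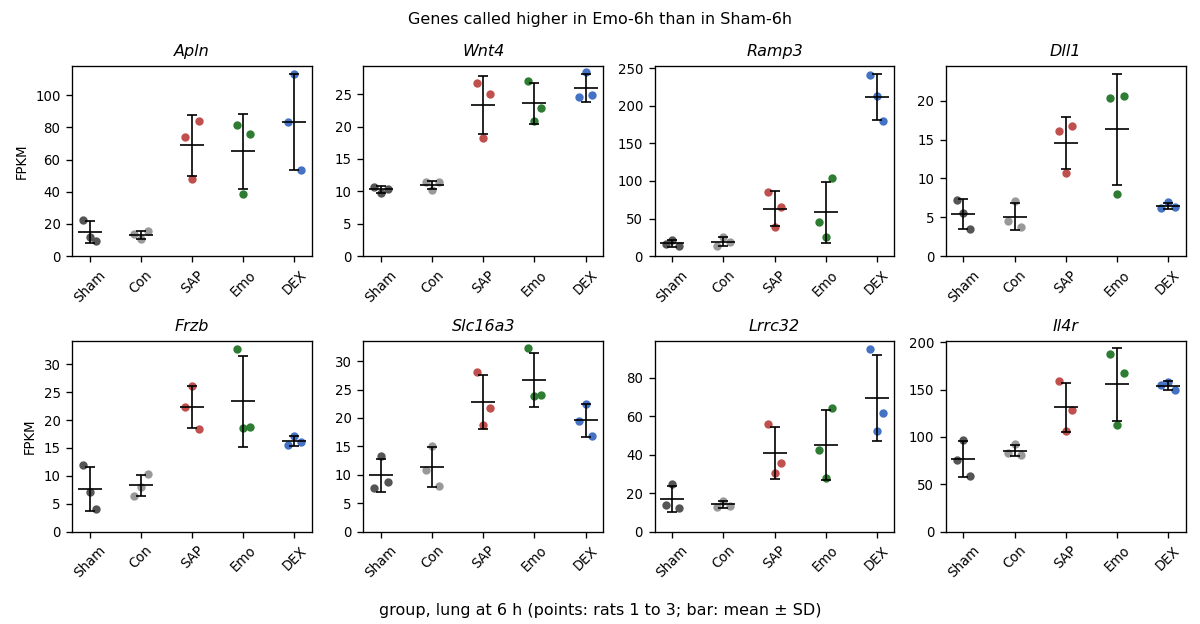
FPKM of 8 genes called higher in Emo-6h, in each rat of the 5 groups at 6 hours (points), with the mean and SD of the 3 rats. In each panel the Emo points lie above the 3 Sham points, which the naming rule required of all these genes but Il4r. The SAP points lie near the Emo points.

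Angpt1, Ogn, Cdh11 and Vgll3 were called lower in Emo-6h. Angpt1, angiopoietin 1, the ligand that keeps Tie2 active, had 0.94, 1.59 and 0.95 FPKM in Emo-6h against 2.68, 3.94 and 3.9 in Sham-6h. The groups were separate, as the naming rule required. The difference was 2.96-fold (log2 −1.56, SE 0.28, adjusted p = 0.00807), and 1 of 6 fits without a library, that without Emo-6h replicate 1, lost the call. Ogn, osteoglycin, a small proteoglycan, had 5.8, 7.81 and 6.26 FPKM against 22.5, 14.8 and 20.4. Cdh11, a mesenchymal cadherin, had 1.17 ± 0.0643 FPKM against 2.61 ± 1.1 and lost its call in all 6 such fits. Vgll3, a TEAD cofactor, had 1.64, 1.4 and 1.76 against 4, 3.02 and 3.89.

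Tspan8, a tetraspanin, was the most abundant gene called lower. It had 53, 63.6 and 39.8 FPKM in Emo-6h and 130.3, 115 and 113 in Sham-6h, a 2.24-fold difference (log2 −1.16, SE 0.18, adjusted p = 0.00635), and without Emo-6h replicate 3 it was just under 2-fold. Fam118a had the same log2 value at a lower level (1.26, 1.39 and 0.92 against 2.97, 2.56 and 2.66 FPKM). G0s2, an inhibitor of the triglyceride lipase ATGL, was 2.17-fold lower, with 12.5, 14.5 and 14.2 FPKM against 31.6, 21.3 and 38.8. Its call was lost by limma-voom, with no filter or the replicate block and in 5 of 6 fits without a library, all but that without Sham-6h replicate 2. Cryz, Atp5s, Ankrd29 and Nup62cl were lower by 2.25-fold to 4.38-fold at means under 5 FPKM. For Nup62cl, the gene with the largest of these folds, the log2 fold change ran from −2.84 to −1.85 without 1 library, the call was lost by DESeq2 and in 5 of 6 such fits (all but that without Sham-6h replicate 3), and the value against Con-6h was −0.10. Pex2, a peroxisome assembly gene, was among the 5 genes with the smallest p at a smaller size, with 8.12, 9.97 and 8.96 FPKM against 16.4, 14.9 and 14.8 (log2 −0.73, SE 0.11, adjusted p = 0.00494). Against Con-6h, Tspan8, Fam118a and Pex2 were at log2 −0.63, −0.63 and −0.26 (adjusted p = 0.133, 0.134 and 0.291). Sham-6h lay above Con-6h for them by log2 0.53, 0.53 and 0.48 (adjusted p = 0.416, 0.416 and 0.359). The entry labelled Rps4x, also among those 5, was at −0.93 against Con-6h (adjusted p = 0.0212).

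The entries labelled Rps4x, Eif3e and Rpl32, symbols of translation genes, were called lower in Emo-6h, and their counts are uncertain because multi-mapped reads, such as those of near-identical copies, were discarded. The entry labelled Rps4x had 6.7, 7.23 and 7 FPKM against 18.7, 17 and 13.5 (2.29-fold, adjusted p = 0.00178), that labelled Eif3e 28.4, 35.2 and 42.6 against 84, 87.7 and 67.1, and that labelled Rpl32 6.16, 5.8 and 5.71 against 12.7, 14.2 and 13.2. Each of these entries lies on another chromosome in the files (4, 13 and 6) than the RefSeq gene of that symbol (X, 7 and 4). A second Rpl32 entry on chromosome 4, the RefSeq location, differed by log2 −0.20 (SE 0.12, adjusted p = 0.322). Over the 84 ribosomal protein genes by symbol, 71 had a negative log2 fold change (8055 of 15934 over all genes), the median was −0.29 against −0.01 over all genes tested, and 2 were called, both lower (0.264% of all genes were called lower). These 2 were the Rps4x and Rpl32 entries above, which lie on other chromosomes than the RefSeq genes. Without the fold minimum 10 of the 84 passed lower and 0 higher (1.68% and 1.59% over all genes). Of 13 protein genes of the mitochondrial genome 11 had a negative value (median −0.38). In SAP-6h against Con-6h the medians of these families were 0.10 and 0.58.

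**Figure D3:**
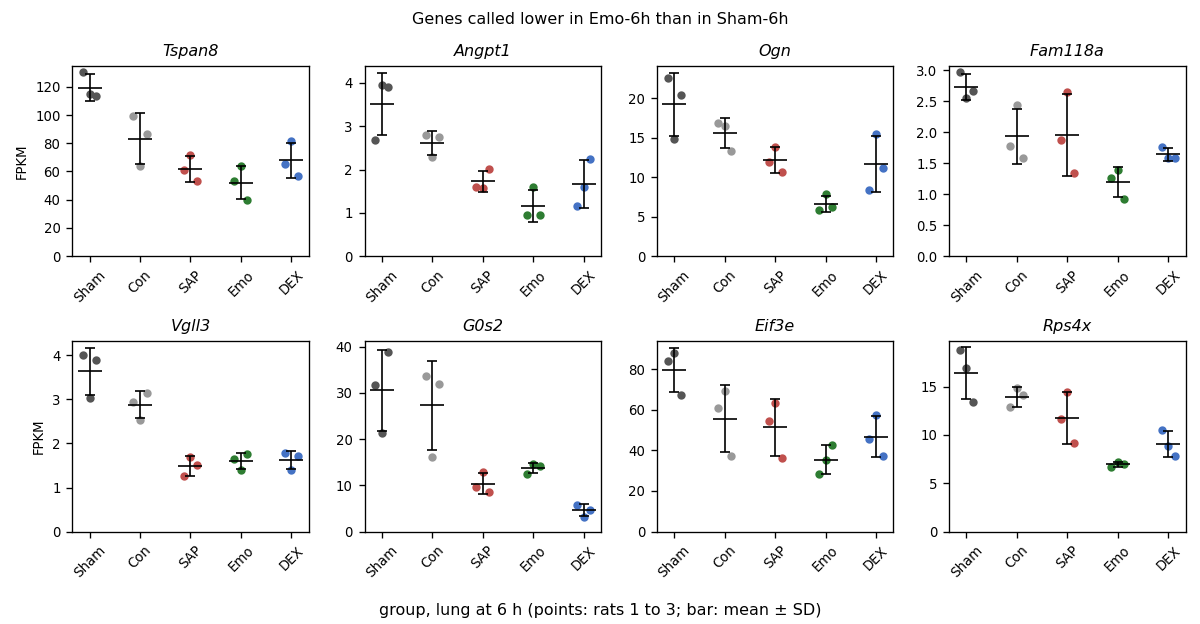
FPKM of 8 genes called lower in Emo-6h, in each rat of the 5 groups at 6 hours (points), with the mean and SD of the 3 rats. The Emo points lie below the 3 Sham points in each panel, which the naming rule required of these genes. Con points lie between them or near Sham for most genes.

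The 6 called lncRNAs were all lower and 3 of the 5 with the largest change were near the detection limit. AABR07032348.2, a lincRNA on chromosome 18, had 0.17, 0.44 and 0.13 FPKM against 2.28, 1.17 and 2.39. The groups did not overlap (log2 −2.94, SE 0.49, adjusted p = 0.00724, −3.63 to −2.63 without 1 library), the call was lost without Emo-6h replicate 1, and it was lower in Emo-6h than in SAP-6h too (log2 −3.06, adjusted p = 0.0327). AABR07052529.1 and AABR07050652.1 were under 0.4 FPKM in every rat of both groups, and AABR07049695.3 and AABR07012047.1 under 1 FPKM. AABR07050652.1 lost its call in all 6 fits without a library, by DESeq2 and the exact test, and with no filter or the replicate block. AABR07012047.1 lost it in 5 of the 6, by limma-voom and with no filter. AABR07052529.1 lost it in 4 and AABR07049695.3 in 3, both also by DESeq2. The sixth, AABR07057683.1, which the naming rule left out, was the most abundant with 5.16, 5.43 and 5.72 FPKM against 14.1, 11.6 and 12.7.

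Of the 40 genes named by rule, 35 lost their call without Emo-6h replicate 1, 5 without Emo-6h replicate 2 and 29 without Emo-6h replicate 3. The losses were 28, 21 and 11 without Sham-6h replicates 1, 2 and 3. Wnt4, Rps4x and Fam118a kept their calls in all 6 fits, and none of the 40 changed direction. Most of the 40 were chosen with FPKM groups that did not overlap, so the kept direction follows largely from the choice. Of genes named by rule and described above without their losses, Apln, Frzb, Slc16a3 and Atp5s lost the call in 2 of the 6 fits. Lrrc32, Glis1, Ogn, Vgll3 and Rpl32 lost it in 3, and C4b, Tnfrsf9 and Cryz in 5. Dll1, Slc7a5, Lrrc73, Ankrd29, Eif3e, Sema4c and Sema7a lost it in 4. Each of these was lost without Emo-6h replicate 1. By limma-voom the calls of Slc7a5, Sema4c, C4b and Cdh11 were lost, and with upper-quartile scaling those of Sema4c and Tnfrsf9. With no filter or the replicate block C4b, Tnfrsf9 and Cdh11 lost theirs, and Cryz with no filter. The count of lncRNAs, 6 with all libraries, was 0, 7 and 2 without Emo-6h replicates 1, 2 and 3, and 1, 4 and 9 without those of Sham-6h.

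Whether the genes that differed from sham also differed between untreated pancreatitis and its own control was read from separate rats. In SAP-6h against Con-6h, where 26 genes were called (0.163%, 0.113% higher and 0.0502% lower), 30 of the 34 genes called higher in Emo-6h had a positive log2 fold change, 9 of them were called higher, and their median was 1.08 against −0.01 over all genes tested. Ppp1r3g (log2 3.65), Apln (2.45, adjusted p = 0.0198), Glis1 (1.88), Ramp3 (1.83), Lrrc32 (1.62) and Wnt4 (1.16, adjusted p = 0.00504) were called there among the genes of the naming rule. The 3 others, Nos3, Tmem2 and F2rl3, were looked at after their values were seen. Of the 42 genes called lower in Emo-6h, 28 had a negative value in SAP-6h against Con-6h, none was called, and the median was −0.17. For the 29 genes called without Emo-6h replicate 3, 11 of 13 higher ones were positive in SAP-6h against Con-6h (median 1.10), and 10 of 16 lower ones were negative (median −0.01). The 26 mRNAs called in SAP-6h against Con-6h became 0 and 15 without SAP-6h replicates 1 and 3, and 8 and 0 without Con-6h replicates 1 and 3.

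**Figure D4:**
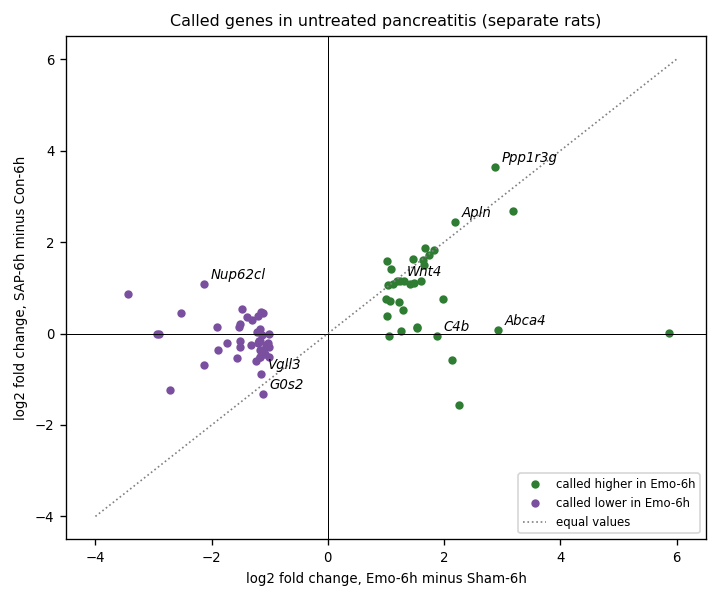
Log2 fold change of Emo-6h over Sham-6h (horizontal axis) against that of SAP-6h over Con-6h (vertical axis) for the 76 called genes. The 2 comparisons share no rats. Green points, called higher in Emo-6h, lie mostly above zero on the vertical axis (30 of 34), and purple points, called lower, scatter on both sides of it.

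The direct comparison of Emo-6h with SAP-6h, the test of emodin against no drug within pancreatitis, differed for few of these genes. In all 4 genes were called (0.0251%), each lower in Emo-6h. Only AABR07032348.2 and the Rpl32 entry on chromosome 6 (log2 −1.32, adjusted p = 0.0361) among the 76 passed an adjusted p of 0.05. For Apln the difference was log2 −0.08, with an interval of −0.93 to 0.76 (95% normal interval from the SE), for Wnt4 0.00 with −0.33 to 0.34 and for Il4r 0.23 with −0.24 to 0.70. A missed threshold does not show that the drug had no effect, and the Apln interval alone spans −0.93 to 0.76. Of genes lower in Emo-6h, Angpt1 was at −0.58 (interval −1.13 to −0.04, adjusted p = 0.364), Ogn at −0.89 (interval −1.60 to −0.17, adjusted p = 0.306) and Vgll3 at 0.10. Dexamethasone-treated rats had Ramp3 at 241, 213 and 180 FPKM, and their comparison with sham (633 genes called, 3.97%) shares the sham rats with this one.

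Against the saline-infused rats, the second control group, fewer genes passed. Emo-6h against Con-6h had 8 mRNAs and 1 lncRNA called (0.0565% of all genes), and Apln (log2 2.36, adjusted p = 0.0367), Wnt4 (1.16, adjusted p = 0.00908) and Lrrc32 (1.75) were among them. The 8 mRNAs became 1 and 107 without Emo-6h replicates 1 and 2, and 0 without Con-6h replicate 1. Angpt1 was at log2 −1.12 there (adjusted p = 0.09). Between Sham-6h and Con-6h no gene was called by edgeR's quasi-likelihood test, with 1372 at an unadjusted p under 0.05, 7 were called by DESeq2 and 0 by edgeR's exact test or limma-voom. At 24 hours Emo-24h against Sham-24h had 0 genes called by that test, by DESeq2, by edgeR's exact test and by limma-voom, with 478 at an unadjusted p under 0.05. The 34 genes higher at 6 hours had a median log2 value of 0.20 at 24 hours (24 of 34 positive) and the 42 lower ones −0.06 (22 of 42 negative), against −0.01 over all genes. The mean Apln level was 10.4 FPKM in Emo-24h and 8.85 in Sham-24h. The interaction with time was called for 1 mRNA of 15554, Rps4x (0.00628% of all genes tested). No gene was called for it with RLE scaling, with no filter, with the compared groups alone, or in 9 of 12 fits that left out a library, those without any Emo-24h replicate, Emo-6h replicate 1 or 3, Sham-6h replicate 1 or 2, or Sham-24h replicate 1 or 3.

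Gene lists, described by their counts and medians, showed where the 3 Emo-6h rats were alike and where they were not. Interferon-stimulated genes were higher in Emo-6h for 22 of 22 members and none passed, with a median log2 fold change of 2.41. Irf7, an interferon regulatory factor, had 40.8, 37.2 and 2136 FPKM in Emo-6h against 12.1, 90.1 and 29.2. Isg15, a ubiquitin-like modifier, had 24.4, 18.5 and 545 FPKM against 6.38, 22.9 and 6.4. In both genes replicate 3 was far above the rest and the other 2 Emo rats lay among or near the Sham rats. Without replicate 3 the median was 0.10 and 12 of 22 were higher. At an unadjusted p under 0.05 there were 16 of 22, against 22.6% of all genes tested, a share that also stands behind the list counts at that threshold below, and 13 were called by DESeq2, 5 by edgeR's exact test and none by limma-voom, where over all 15554 mRNAs these called 167, 141 and 59. Complement genes (a list of 16 that does not hold C4b, 14 of 16 higher, median 0.68, none passed, 9 at an unadjusted p under 0.05, 2 by DESeq2, 1 by the exact test and 0 by limma-voom) had a median of 0.22 without that rat. The cause of the difference in this 1 rat was not tested.

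**Figure D5:**
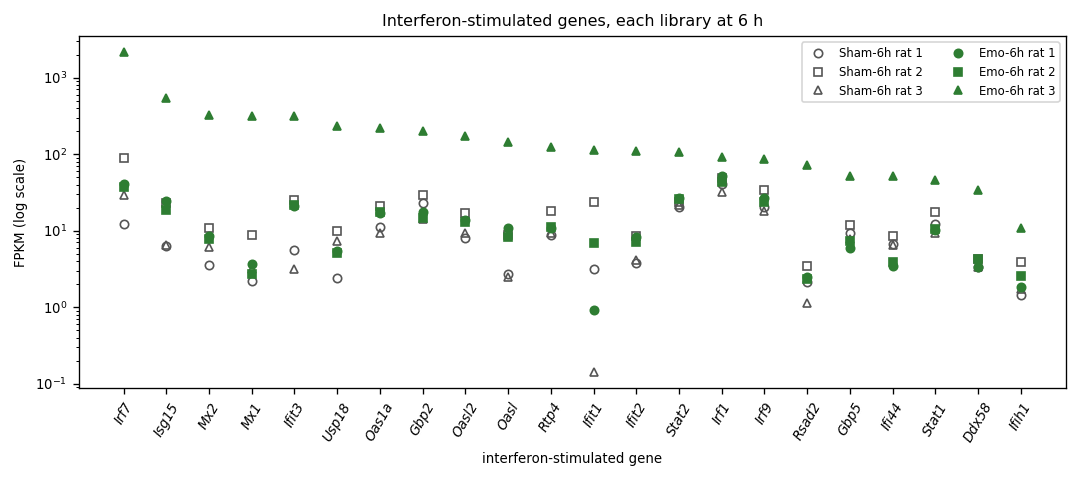
FPKM (log scale) of the 22 interferon-stimulated genes in each of the 3 Emo-6h rats (filled) and 3 Sham-6h rats (open). The triangles of Emo-6h rat 3 lie above all others, while rats 1 and 2 lie among or near the Sham-6h rats.

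Blood cell lists had medians from −0.16 to 1.43, and the rat with the highest sum differed between lists. All 9 red blood cell genes were higher (median log2 1.43), and Hba1, a haemoglobin chain, had 5367, 5883 and 2263 FPKM against 2711, 926 and 577, so that Sham-6h replicate 1 lay above Emo-6h replicate 3. None of the 9 passed, and 2 had an unadjusted p under 0.05. The median was 1.02 without Sham-6h replicate 3 and 2.69 without Sham-6h replicate 1, and in SAP-6h against Con-6h it was 1.40. Neutrophil genes were higher for 15 of 18 (median 0.34, none passed, 0 at an unadjusted p under 0.05), with S100a9 at 1598, 1771 and 782 FPKM against 1255, 2956 and 160.3. Sham-6h replicate 2 was the highest of the 6 rats and Sham-6h replicate 3 the lowest, and the list's median was 1.14 without the former and 0.05 without the latter. Platelet genes had a median of 0.63 (8 of 9 higher, none passed, 3 at an unadjusted p under 0.05). T cell, B cell and macrophage lists had medians of −0.16, 0.10 and 0.13, and none of their members passed, with 0, 0 and 2 at an unadjusted p under 0.05. Each of these 3 medians changed sign without 1 library, to 0.21 for T cells without Sham-6h replicate 2, −0.03 for B cells without Sham-6h replicate 3 and −0.25 for macrophages without Emo-6h replicate 3. Cytotoxic and natural killer cell genes were higher for 8 of 10 (median 0.44, none passed, 0 at an unadjusted p under 0.05). Their median was −0.60 without Emo-6h replicate 3, with 1 of 10 higher, and 1.18 without Sham-6h replicate 2. DESeq2, the exact test and limma-voom called 0 members of these blood cell lists.

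Immediate early genes were higher for 23 of 23 members (median 0.63, against −0.01 over all genes, 0.45 without Emo-6h replicate 3 and 1.02 without Sham-6h replicate 2), and none passed although 9 had an unadjusted p under 0.05 and the exact test called 1 (DESeq2 and limma-voom 0). Klf2, a flow-responsive endothelial factor, had 335, 322 and 340.4 FPKM against 208, 241 and 193, and its groups did not overlap (log2 0.67, SE 0.22, adjusted p = 0.0802). Jund had 308, 264 and 233 against 195, 170.0 and 184. Of 20 glucocorticoid targets 1 passed upward and 1 downward without the fold minimum, against 1.59% and 1.68% of all genes: Per1, a clock gene, at 36.5, 36.1 and 37.5 FPKM against 17, 20.2 and 23.4 (log2 0.90, adjusted p = 0.0177), and Sult1a1, a sulfotransferase, at 179, 222 and 155 against 360.1, 384 and 279. Of the 20 targets 15 were higher (median 0.42, 0.39 without Emo-6h replicate 3). Nr3c1, the glucocorticoid receptor, was lower by less than 2-fold (log2 −0.58, adjusted p = 0.0156).

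Few members of the other lists passed. Slc2a1, the glucose transporter GLUT1, had 17.5, 20.5 and 18.7 against 10.7, 14.1 and 9.96 (log2 0.74, adjusted p = 0.00807), and with Pfkfb3 it made 2 of 18 hypoxia and glycolysis genes past an adjusted p of 0.05 (3.26% over all genes), while the list's median was 0.09. Sesn2, a stress-response gene (log2 0.74), Plaur, the urokinase receptor (0.88), Nfkbib, an NF-kB inhibitor (0.66), and Tjp3, a tight junction scaffold (0.67), were also higher. In the unfolded protein, p53, coagulation, NF-kB and epithelial junction lists 1 of 18, 14, 16, 16 and 14 passed upward (1.59% over all genes). Members higher numbered 11, 8, 10, 15 and 7, and the medians were 0.21, 0.09, 0.39, 0.39 and 0.04. Without Emo-6h replicate 3 these medians were −0.0009, 0.06, 0.26, 0.33 and 0.12. Lamp3, a lamellar body gene of alveolar type 2 cells, was lower at 31.1, 46.4 and 29.1 FPKM against 57.4, 56.7 and 77 (log2 −0.82, adjusted p = 0.0445) while Sftpc was at −0.03. Most alveolar type 2 markers went the other way, with 8 of 12 higher (median 0.12) and 1 past an adjusted p of 0.05, lower (1.68% over all genes). Without Emo-6h replicate 3, 11 of 12 were higher (median 0.28). Fmo1, a flavin monooxygenase, was lower (−0.87). In its list of cytochrome P450 and drug metabolism genes 10 of 18 were higher (median 0.10), and 1 passed, lower (1.68% over all genes). The CXC and CC chemokine lists, the interleukin-1 and interleukin-6 families, NRF2 targets, heat shock chaperones and cell proliferation genes had no member past an adjusted p of 0.05, with 2 of 12, 1 of 15, 4 of 17, 5 of 17, 3 of 15 and 1 of 22 at an unadjusted p under 0.05, against 22.6% of all genes. In the same order 11, 8, 11, 12, 6 and 10 members were higher. Their list medians were 0.52, 0.03, 0.21, 0.32, −0.08 and −0.08, and that of the CXC list was 0.17 without Emo-6h replicate 3. DESeq2 and the exact test each called 1 CXC chemokine and no member of the other 5 lists, and limma-voom called none.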

How the data were processed

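RNA was read from the lung of 30 rats, 3 in each of 10 groups. The authors made directional polyadenylated libraries, aligned the clipped reads (TopHat2, up to 2 mismatches) against rat_ensembl_v6 and discarded multi-mapped reads, and the counting program is not given in the sources used here. The deposited counts are whole reads per gene, and the deposited FPKM values, rounded to 2 decimals, were used for levels only. Multi-mapped reads being discarded can lower the values of gene copies.

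Counts were filtered with filterByExpr (minimum count 10, total 15), scaled by TMM and fitted with edgeR 4.0.16 in R 4.3.3 (limma 3.58.1) to all 30 libraries with 1 term per group, which left 20 residual degrees of freedom. Genes were called at an adjusted p under 0.05 and 2-fold. mRNA is every gene type other than lincRNA, antisense and sense intronic. Reads on genes per library set the depth, and values under 1 FPKM rest on few reads. Labels number the rats. The p-values set each difference against the spread between rats of the same group. That spread was estimated over all 10 groups and is not that of Emo-6h and Sham-6h alone.

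The members and gene lists were chosen with earlier results of these data known. Named genes are the 15 called in each direction with the largest change, a mean of 1 FPKM, a usual symbol and separate groups, the 5 smallest p, the 5 called lncRNAs with the largest change, called list members, the 5 most abundant called genes, up to 4 abundant genes of each list described, and called interaction genes, and the results of 2 genes that met this rule or passed in a list are not reported here. Where a symbol had more than 1 gene ID, lists used the one with the most reads. Alternatives were RLE and upper-quartile scaling, DESeq2 1.42.0, the exact test, limma-voom, other filters and thresholds, smaller models, a replicate block and each library left out. The list medians without a library, and the genes called without Emo-6h replicate 3, were added after seeing the data. The fit was tested on simulated data before use. Promoter sequences are those of RefSeq, GRCr8. Figures were drawn with matplotlib 3.10.9 in Python 3.11.15.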

Additional observations from a re-analysis of the deposited data

Results flagged for a closer look

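The entry labelled Rps4x differed between the time points by the test of the difference itself: its log2 fold change of emodin-treated over sham rats was −1.19 at 6 hours and 0.21 at 24 hours, a difference of 1.41 (SE 0.23, adjusted p = 0.0445, edgeR's quasi-likelihood test, 3 rats a group). The call was lost with RLE scaling, with no filter, with the compared groups alone and in 9 of 12 fits without a library. The entry lies on another chromosome in the files than the RefSeq gene of that symbol, and the count of reads from its copies was not tested. The test for single outlying rats needs 4 rats and was not applied to groups of 3.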

How the results depend on the processing

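The 70 mRNAs called in Emo-6h against Sham-6h became 511 with no fold minimum and 498 at an unadjusted p under 0.05 and 2-fold. The count was 167 by DESeq2, 141 by edgeR's exact test, 0 with the compared groups alone and 4 with the 15 libraries of 6 h. It was 5 to 199 without 1 library. The 6 lncRNAs became 35 at an unadjusted p under 0.05 and 2-fold, and 10 by the exact test. They became 0 with the compared groups alone, 0 with 15 libraries and 0 to 9 without 1 library. The 1 interaction gene became 335 mRNAs at an unadjusted p under 0.05 and 2-fold, and 10 by DESeq2. It became 0 with RLE scaling, the compared groups alone or no filter, and 0 to 1 without 1 library. In SAP-6h against Con-6h the mRNAs called became 400 at an unadjusted p under 0.05 and 2-fold. They were 92 by DESeq2, 75 by the exact test and 0 to 32 without 1 library. The 8 mRNAs of Emo-6h against Con-6h became 13 with no fold minimum and 594 at an unadjusted p under 0.05 and 2-fold. They were 123 by DESeq2, 89 by the exact test, 0 with the compared groups alone, 3 with 15 libraries and 0 to 107 without 1 library. The cause was not tested. None of the 40 genes named for their call or p-value changed direction under any alternative that was run for it. Most were picked in these same libraries for a large change and separate groups. The kept direction follows largely from that choice and is not support. Besides the fits without a library, AABR07052529.1 had values in 11 and AABR07050652.1 in 9 of 12 alternatives. The abundant list members named besides were not run. With 3 rats a group, a missed threshold leaves differences within the spread between rats undetectable.

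With a replicate block 58 mRNAs were called in Emo-6h against Sham-6h, 5 lncRNAs, 1 interaction gene, 25 mRNAs in SAP-6h against Con-6h and 12 in Emo-6h against Con-6h. Rats of the same number did not deviate together (r = 0.09, 0.02 and −0.11 for numbers 1 to 3), and SAP-6h with Con-6h gave 0.29, 0.19 and 0.04, not all over 0.1, so the rats were taken to share only a number. Of the 40 named genes 7 lost their call under the block.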
